A study of Mus musculus with 2 samples.

Results

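The genes described here lie on mouse chromosome 1 and were read for how their level followed the share of a cell's RNA that came from that chromosome. A gene was a member when it had at least 1 unique molecular identifier (UMI, a tag that marks 1 captured RNA molecule) in at least 5% of the barcodes of at least 18000 UMIs in each of the 2 libraries, and when it was on none of the name lists left out of the set. Those lists held symbols that start with Rp, Psm, Nduf, Cox, Col, Lam, Hist, Hsp or Mcm and 14 genes by name. Of 1798 chromosome 1 genes in the files, 660 were detected by this rule, 33 were left out by name, and 627 were members. The same rule detected 12102 genes on all chromosomes. Just inside the threshold lay Tnni1, detected in 5.13% of barcodes in the library where it was rarer, Gulp1 with 5.15% and Pogk with 5.21%. Just outside lay Chil1 with 4.96%, Plxna2 with 4.81% and Cd34 with 4.70%. Detection chose the members, and these values support nothing else.

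Embryonic stem cells of the inbred mouse strain C3H/HeSn-Paf/J were profiled at 2 points of a culture by droplet single-cell RNA sequencing. Both libraries pooled 9 lines, 3 each with XX, XO and XY sex chromosomes, on irradiated fibroblast feeders in serum with leukaemia inhibitory factor. The time 1 library was the initial point, and the time 2 library was taken 10 passages later. Each time point was 1 library. Cells were not assigned to lines, and both libraries shared the strain, the feeders and the medium. Cells of 1 library are not replicates, so no test was made and every interval below is an exact 95% interval that covers counting error only. A difference between cells with and without extra chromosome 1 RNA cannot be told apart from a difference between lines.

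A cell with an additional copy of a chromosome has additional templates for each of that chromosome's genes. Where transcription follows template number, the RNA of all those genes rises by the same factor, and genes under feedback, imprinting or limiting regulators can depart from it. Gains of whole chromosomes, among them chromosomes 1 and 8, are known from long culture of mouse embryonic stem cells. No DNA was measured here. The word gain below stands for a high share of chromosome 1 RNA, and the ratio of 1.5 is the value that 3 copies in place of 2 would give if RNA followed copies.

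Pluripotent-marker clusters held 14122 cells at time 1 and 19085 at time 2, with a median of 43505 and 50464 UMIs per cell. All 12 pluripotency markers of the list were detected in each of the 14 clusters, fibroblast-marker and macrophage-marker clusters included, so detection does not tell the clusters apart. Pou5f1, the gene of the pluripotency factor Oct4, read 654 to 877 per 1000000 UMIs in the 5 clusters used. It read 292 in the cluster led by the fibroblast-expressed Mgp and 516 in that led by the macrophage gene Lyz2. Clusters not used also read 780 (led by Ebf1), 781 (Notch2) and 881 (Card19), and the remaining ones read 420 to 615. This level therefore does not set the used clusters apart. UMI totals were 1735810403 and 1843588321, and 197 barcode sequences occurred in both libraries. Each cell was given a chromosome 1 ratio from its UMIs of the members other than the 3 most abundant. These were taken over the UMIs of 9804 reference genes on the autosomes other than 1, 8 and 14, and divided by the median of time 1 cells. For the X ratio the divisor was instead the median, in each library, of cells with at least 2 UMIs of 4 Y chromosome genes. Matched cells were those with X, chromosome 8 and chromosome 14 ratios all under 1.2, and numbered 4910 at time 1 and 1925 at time 2. The no-gain class held ratios of 0.8 to 1.2 and the gain class ratios of 1.3 to 1.8. At time 1 the gain class was 135 of 4910 matched cells, or 2.75% (2.31 to 3.25%), and at time 2 it was 1056 of 1925, or 54.9% (52.6 to 57.1%). The no-gain class held 4721 cells at time 1 and 794 at time 2. Median ratios of the no-gain and gain classes at time 2 were 1.02 and 1.48. The class limits bound these medians, so they cannot show how near the 2 modes lay to equal and to 1.5-fold RNA. In the histogram of matched time 2 cells, the fullest bins of the 2 ranges began at 1 (145 cells) and 1.425 (139 cells). The 68 matched time 2 cells between the classes had a median of 76129 UMIs, against 48469 without gain and 51742 with it, and whether they were doublets was not tested.

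**Figure D1:**
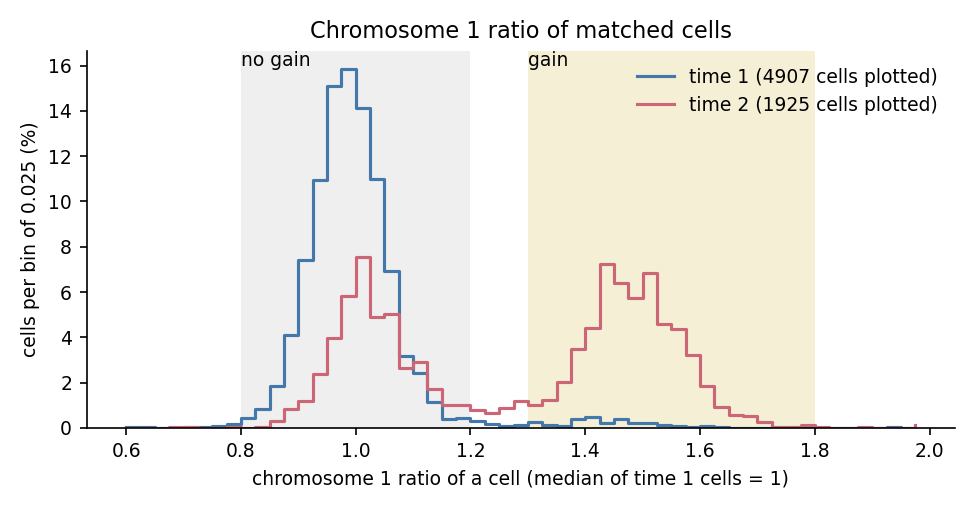
Histogram of the chromosome 1 ratio of matched cells (x axis, relative to the median of time 1 cells) as the percentage of cells of each library in bins of 0.025 (y axis), with the no-gain and gain ranges shaded. Time 1 cells form a large peak near 1 and a small one in the gain range, which holds 135 cells with a median of 1.43, whereas time 2 cells form 2 large peaks, with medians of 1.02 and 1.48 in the shaded ranges.

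Promoter sequences are shown for the members with the 2 lowest and the 2 highest ratios of gain over no gain that had an entry in the RefSeq promoter table (build GRCm38.p6, 250 bases before to 50 after the start that RefSeq gives), because these genes had ratios far from the centre described next. Slc40a1, which had the lowest ratio of all, was not among the entries. They are written 5′ to 3′ on the strand of the gene, with capitals wherever a motif searched matched on either strand. The motifs were TATAAA, of the core promoter, GGGCGG, called the GC box below, and CCAAT, which binds the factor NF-Y. The Acadl promoter is chr1:66863260-66863559 on the minus strand and the Lpgat1 promoter chr1:191717774-191718073 on the plus strand. The Vwa3b promoter is chr1:37029063-37029362 on the plus strand and the E330020D12Rik promoter chr1:153414184-153414483 on the minus strand. The gene starts given below are those of the GENCODE annotation and can differ, and the Vwa3b window begins 2467 bases inside the gene as annotated there.
Acadl: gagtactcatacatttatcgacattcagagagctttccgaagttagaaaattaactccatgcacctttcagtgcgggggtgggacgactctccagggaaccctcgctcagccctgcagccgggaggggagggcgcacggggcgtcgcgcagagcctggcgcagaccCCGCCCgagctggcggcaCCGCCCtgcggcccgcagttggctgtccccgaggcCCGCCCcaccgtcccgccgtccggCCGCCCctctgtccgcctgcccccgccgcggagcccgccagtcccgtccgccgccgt
Lpgat1: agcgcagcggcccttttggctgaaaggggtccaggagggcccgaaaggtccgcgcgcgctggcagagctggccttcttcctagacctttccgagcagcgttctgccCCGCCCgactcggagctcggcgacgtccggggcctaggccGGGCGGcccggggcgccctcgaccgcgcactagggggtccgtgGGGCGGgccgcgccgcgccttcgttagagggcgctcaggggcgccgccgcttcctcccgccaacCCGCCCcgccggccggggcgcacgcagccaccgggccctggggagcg
Vwa3b: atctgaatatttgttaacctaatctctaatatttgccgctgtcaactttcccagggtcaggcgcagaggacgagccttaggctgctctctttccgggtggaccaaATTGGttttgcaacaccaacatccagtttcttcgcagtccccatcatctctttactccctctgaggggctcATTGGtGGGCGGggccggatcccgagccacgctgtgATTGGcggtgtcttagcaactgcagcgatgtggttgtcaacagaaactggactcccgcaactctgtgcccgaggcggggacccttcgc
E330020D12Rik: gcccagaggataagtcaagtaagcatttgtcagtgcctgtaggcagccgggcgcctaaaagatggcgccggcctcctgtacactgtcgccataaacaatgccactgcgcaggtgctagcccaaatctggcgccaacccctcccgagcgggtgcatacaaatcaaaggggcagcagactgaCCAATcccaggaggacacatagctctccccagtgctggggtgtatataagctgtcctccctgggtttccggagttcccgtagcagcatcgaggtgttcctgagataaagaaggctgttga
The Acadl and Lpgat1 windows, of genes with ratios under 1, held 4 GC boxes each and 34 and 43 CG pairs. The Vwa3b window held 1 GC box, 3 CCAAT matches and 15 CG pairs, and that of E330020D12Rik held 1 CCAAT match and 12 CG pairs. E330020D12Rik passed the level filter described below only through its level with the gain. None of the 4 windows held the exact letters TATAAA. The E330020D12Rik window holds the close variant tatataag, which was not searched for. A match is a run of letters, not a measured site of binding.

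Most chromosome 1 genes were higher in cells with the gain, around a common centre. To keep a gene out of its own classification, members were sorted by position into 2 alternating sets of 312, and a cell was classed for a gene by the other set. The 3 most abundant members, Ptma, Ncl and Eef1b2, entered neither set. For a given gene the no-gain class of matched time 2 cells then held 732 to 817 cells and the gain class 1022 to 1070. Levels are UMIs of a gene per 1000000 UMIs of the reference genes, summed over a class, and every level below is on this scale. Because the classes were read from other genes of the same chromosome in the same cells, the ratios below are a description. A mean level of the 2 classes of at least 20 was reached by 384 of the 627 members, a filter that a gene raised by the gain passes more easily.

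The median ratio of gain over no gain was 1.42 over these 384 members, with quartiles of 1.32 and 1.53 and a range of 0.566 to 2.65. A ratio of at least 1.2 was found for 351 of them, or 91.4%, where 9.32% of all 6718 autosomal genes tested, members included, and 4.34% of the 6334 genes on other autosomes reached it. The median of those other genes was 0.998. Over all 627 members the median was 1.397 and 519 reached 1.2. Summed over all members, the level was 1.45 times that of the no-gain class (1.45 to 1.46). Time 1 cells took no part in naming genes. Their gain class of 129 to 139 cells gave a median of 1.44, and 321 of the 351 members, or 91.5%, reached 1.2 there too. Of the 275 genes on other autosomes at 1.2 or more at time 2, 189 did so at time 1, or 68.7%, and at time 1 488 of all 6334 did. Cells with a chromosome 8 gain at time 2 gave a median of 1.4002.

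Counting intervals held 1.5 for 158 of the 384 members, lay below it for 179 and above it for 47. The standard deviation of the log2 ratio over members was 0.21, and that expected from counting error alone was 0.06. Over the other autosomal genes the corresponding values were 0.20 and 0.06. The spread of the members around their shifted centre was thus larger than counting error and near the spread of genes on other chromosomes around theirs.

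**Figure D2:**
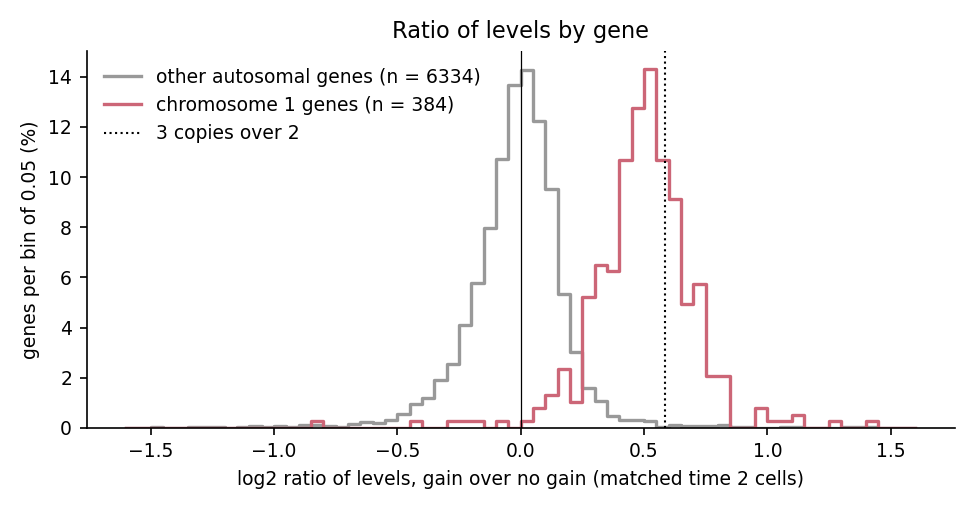
Distribution of the log2 ratio of gain over no gain in matched time 2 cells (x axis) as the percentage of genes in bins of 0.05 (y axis) for 384 chromosome 1 genes and 6334 genes on other autosomes, with a dotted line at the log2 of 1.5. The chromosome 1 genes form a peak of similar width that is displaced to the right, at a median ratio of 1.42 against 0.998.

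The classes also differed in other ways that move with these results, and the part of these differences was not tested except where within-cluster values are given. Primed epiblast markers (5 of 5 detected in both classes) summed to 450 without gain and 264 with it, led by Dnmt3b with 329 and 187, while Otx2 read 36.1 and 37.8. Pluripotency markers (12 of 12) summed to 18813 and 20137, of which Dppa5a was 12422 and 13496, while Utf1 read 1378 and 1292 and Tdgf1 818 and 739. Fibroblast markers (7 listed, with Lum at 0 without gain) summed to 10.9 and 11.05. Trophoblast markers (5 of 5) summed to 24.8 without gain and 7.65 with it, led by Hand1 with 16.5 and 1.43, while Gata3 read 3.41 and 3.504 and Tfap2a 0.502 and 0.679. The median mitochondrial share of a cell's UMIs was 2.03% and 2.42%. The Mras-led cluster held 34.9% of no-gain and 52.1% of gain cells, the Nanos3-led cluster 40.3% and 41.2%, and the Zbp1-led cluster 13.1% and 3.13%. The Rhox9-led cluster held 53 cells with a ratio up to 1.2 and 11 with a ratio of 1.3 or more. Within the Nanos3-led cluster the median ratio of the members was 1.45, and within the Mras-led cluster 1.42. Median UMIs per cell were 48469 and 51742. At time 1, 89 matched cells with a ratio of 1.3 or more were in the Zbp1-led cluster, 23 in the Nanos3-led and 23 in the Mras-led. Those with a ratio up to 1.2 numbered 4266, 97 and 30 in the same clusters. Time 1 ratios of leading genes of these clusters, such as Nr5a2 and Slc40a1, cannot be told apart from this difference.

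Of the 8 members of highest level, 5 are given here and Ncl, Eef1b2 and Hnrnpu with their lists below. Ptma encodes prothymosin alpha, an acidic nuclear protein. Its level was 15458 without gain and 23766 with gain at time 2, and 13939 and 21156 at time 1, so both gain classes lay above both no-gain classes. Its ratio was 1.54 (1.53 to 1.54) at time 2 and 1.52 (1.51 to 1.53) at time 1. H3f3a, which encodes the replication-independent histone variant H3.3, read 2363 and 3427 at time 2, a ratio of 1.45 (1.43 to 1.47), and 2851 and 4142 at time 1, again 1.45 (1.43 to 1.48). Snrpe, a core protein of spliceosomal snRNPs, read 2004 and 2958, a ratio of 1.48 (1.46 to 1.49). Cacybp, a co-chaperone and calcyclin-binding protein, read 1367 and 1988, a ratio of 1.45 (1.43 to 1.48). Prdx6, an antioxidant peroxiredoxin, read 1273 and 1903, a ratio of 1.495 (1.47 to 1.52). The 5 ratios at time 2 lay between 1.45 and 1.54, above the members' median of 1.42, and that of Ptma lay above their upper quartile. Those of Ncl, Eef1b2 and Hnrnpu were 1.56, 1.35 and 1.27. In time 2 cells of high X dosage, defined below, some of these ratios were lower. They were 1.34 (1.32 to 1.35) for Ptma and 1.21 (1.18 to 1.23) for H3f3a. Snrpe had 1.19 (1.16 to 1.22) and Cacybp 1.13 (1.098 to 1.17). Prdx6 was higher with 1.71 (1.62 to 1.79), and Ncl, Eef1b2 and Hnrnpu had 1.58, 1.39 and 1.31. Summed over all members, the ratio in these cells was 1.36 (1.35 to 1.37), below the members' median of 1.44.

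Of the 23 listed genes of translation and ribosome biogenesis, 22 were members, all 22 passed the level minimum, and all 22 had a ratio of at least 1.2, with a median of 1.47 and a range of 1.34 to 1.65. This count, like the full counts of the next 3 lists, is near the 91.4% of all 384 members. Ncl encodes nucleolin, which acts in ribosomal RNA transcription and assembly. It read 7319 without gain and 11418 with gain at time 2, a ratio of 1.56 (1.55 to 1.57), and 4559 and 6703 at time 1, a ratio of 1.47 (1.45 to 1.49). Ncl without gain was thus higher at time 2 than with gain at time 1. Eef1b2, an exchange factor subunit of the elongation complex, read 5796 and 7820, a ratio of 1.35 (1.34 to 1.36), and at time 1 it read 5709 and 7940, a ratio of 1.39 (1.37 to 1.41). Its gene overlaps Ndufs1 on the other strand, and whether counting used strand is not given in the sources used here.

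RNA processing genes gave a median of 1.499 (15 members passed of 18, 15 at 1.2 or more), with a range of 1.26 to 1.77. Hnrnpu, a nuclear scaffold and RNA-binding protein, was the abundant member of this list nearest to the lower end. It read 1505 and 1908 at time 2, a ratio of 1.27 (1.25 to 1.29), and 1323 and 1676 at time 1, a ratio of 1.27 (1.23 to 1.301). The interval of this well-counted gene lay below 1.5 in both libraries and its ratio was 1.27 within the Nanos3-led and 1.24 within the Mras-led cluster. Its gene overlaps Cox20 on the other strand, so the caution given for Eef1b2 holds here too. The same caution holds for Sgo2a, Trip12 and Ivns1abp below, which overlap Kctd18, Fbxo36 and Gm10138 on the other strand. Prrc2c, an RNA-binding protein of stress granules, read 873 and 1310, a ratio of 1.5002 (1.47 to 1.53).

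Genes of the cell cycle and DNA repair had the highest median among the 7 lists, 1.53, and 20 of 20 reached 1.2, with ratios of 1.34 to 1.69. Dtymk, the thymidylate kinase of nucleotide synthesis, read 724 and 1068, a ratio of 1.47 (1.45 to 1.504). Sgo2a, the shugoshin that protects centromeric cohesion, read 257 and 344 and lay at the lower end with 1.34 (1.29 to 1.38). Ubiquitin and autophagy genes gave a median of 1.43, and 19 of 19 that passed reached 1.2. Of these, Trip12, a ubiquitin ligase, read 315 and 496, a ratio of 1.57 (1.53 to 1.62). The list medians were read on genes chosen with earlier results of these data known, and all lay within the quartiles of the 384 members.

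In the other 3 lists some members did not reach 1.2, which held for 33 of all 384. Chromatin and transcription genes had a median of 1.43, with 29 of 31 at 1.2 or more, near the 91.4% of all members. The exceptions, named after their values were seen as are those of the next lists, were Hes6 and Klf7, a Krüppel-like factor with a ratio of 1.199. Signalling, membrane and adhesion genes had a median of 1.42, with 12 of 16 at 1.2 or more, the lowest share of the 7 lists. The exceptions were the ephrin receptor Epha4 with 1.08, the sodium pump subunit Atp1b1 with 1.099, the kinase Mapkapk2 with 1.12 and the phosphatase Ptpn14 with 1.14. Igfbp2, a secreted binder of insulin-like growth factors and the most abundant on this list, read 553 and 730, a ratio of 1.32 (1.29 to 1.35). Its ratio was 0.927 over all pluripotent-marker cells of time 2. There, cells with an X ratio of at least 1.2 and no gain of chromosome 8 or 14 made up 2448 of 6652 no-gain cells and 54 of 11769 gain cells. Arpc2, a subunit of the Arp2/3 actin nucleator, read 502 and 722, a ratio of 1.44 (1.402 to 1.47).

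Mitochondrial and metabolic genes had the lowest list median, 1.398, and 28 of 32 reached 1.2, again near the share of all members. Mrpl15, a protein of the large mitochondrial ribosomal subunit, read 900 and 1279, a ratio of 1.42 (1.39 to 1.45). The 4 below 1.2 were Acadl, Acsl3, the aldehyde dehydrogenase Aldh9a1 with 1.19 and Lbr, the lamin B receptor and sterol reductase, with 1.17. Ratios on this list ran from Acadl at 0.736 to Glul at 1.95.

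A small group of members was lower, or nearly level, in cells with the gain. Ratios were under 1.2 for 33 of the 384 members and under 1 for 6, and 13 intervals held 1 or lay below it. Of the 6334 genes on other autosomes 6059 were under 1.2 and 3221 under 1. At least 1.2-fold lower with the gain were 3 members, or 0.781%, where 7.37% of all genes tested were that much lower. At time 1, 14 members were under 1, and all 6 under 1 at time 2 were among them. On other autosomes 3244 of the 6334 genes were under 1 at time 1. Of the 384 members 55 were under 1.2 at time 1, and 25 of them were among the 33. On other autosomes 5760 of the 6059 genes under 1.2, or 95.1%, were so at time 1, and 5846 of all 6334 were. Within the Nanos3-led cluster 32 members were under 1.2, within the Mras-led cluster 28, and within both 11, all 11 among the 33. Of the genes on other autosomes 5665 were under 1.2 within both, 5646 of them among the 6059. High X dosage stands for an X ratio of at least 1.2 with no gain of chromosome 8 or 14. In such time 2 cells, whose gain class held only 45 to 87 cells, 73 members were under 1.2, 7 of them among the 33. There, 4757 genes on other autosomes were under 1.2, 4612 of them among the 6059.

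Slc40a1 (ENSMUSG00000025993, chr1:45908068-45926523) encodes ferroportin, the iron exporter of the cell membrane, and had the lowest ratio. It read 40.9 without gain and 23.1 with gain at time 2, and 64.0 and 26.6 at time 1. Both gain classes lay below both no-gain classes. The ratio was 0.566 (0.509 to 0.629) at time 2 and 0.416 (0.334 to 0.512) at time 1. Slc40a1 is among the 10 leading genes of the Zbp1-led cluster, which was rarer among gain cells, and the ratio was 0.776 within the Nanos3-led cluster and 0.630 within the Mras-led cluster. It lay below 1 in both, was 0.371 (0.346 to 0.398) in time 2 cells with a chromosome 8 gain, and was 0.9005 in matched time 2 cells of all clusters. In cells of high X dosage it was 4.10 (3.37 to 4.95), on the other side of 1.

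Acadl (ENSMUSG00000026003, chr1:66830839-66863277) encodes the long-chain acyl-CoA dehydrogenase of mitochondrial fatty acid oxidation. It read 58.9 and 43.4 at time 2, a ratio of 0.736 (0.679 to 0.798), and 82.3 and 62.9 at time 1, a ratio of 0.765 (0.667 to 0.873). The ratio was 0.810 within the Nanos3-led cluster, 0.856 within the Mras-led cluster and 0.751 in cells with a chromosome 8 gain. In cells of high X dosage it was 1.76 (1.38 to 2.21), on the other side of 1. Acsl3, which activates long-chain fatty acids by joining them to coenzyme A, was near level. It read 106 and 101 at time 2, a ratio of 0.954 (0.901 to 1.01), and 135 and 111 at time 1, a ratio of 0.823 (0.743 to 0.909). In cells of high X dosage it was 1.35 (1.13 to 1.605). Acsl3 shares positions with Utp14b on the same strand, so its counts are uncertain.

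Lpgat1, an acyltransferase of lysophospholipids, read 25.2 and 20.8 at time 2, a ratio of 0.825 (0.731 to 0.932), and its ratio was 0.805 at time 1. It was 0.941 within the Nanos3-led but 1.15 within the Mras-led cluster. Hes6, a helix-loop-helix factor of the Hes family, read 61.4 and 51.8 at time 2 and 137 and 81.6 at time 1. Its ratio of 0.843 (0.780 to 0.912) became 1.01 within the Nanos3-led and 1.298 within the Mras-led cluster, and Hes6 is a leading gene of the Zbp1-led cluster. Arl4c, a small GTPase of the ARF family, read 45.0 and 39.8, a ratio of 0.884 (0.809 to 0.967), and reached 1.27 and 1.13 within the 2 clusters. None of these 3 genes had a ratio below 1 in both clusters, unlike Slc40a1 and Acadl. Intervals held 1 for Lpgat1 in both clusters. They also did for Hes6 in the Nanos3-led (0.884 to 1.16) and Arl4c in the Mras-led cluster (0.960 to 1.34). In the Mras-led cluster Slc40a1 read only 10.9 and 6.87 and Lpgat1 10.9 and 12.5, under the level minimum of 20. In cells of high X dosage the ratios were 1.03 (0.693 to 1.48) for Lpgat1, 1.798 (1.502 to 2.14) for Hes6 and 3.39 (2.64 to 4.29) for Arl4c.

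The remaining low members stood near 1 in matched cells. Nenf, which encodes the secreted protein neudesin, read 71.0 and 71.4, a ratio of 1.01 (0.937 to 1.08), and had 1.44 (1.24 to 1.66) in cells of high X dosage. Zdbf2, an imprinted gene expressed from the paternal copy, read 122 and 127 at time 2, a ratio of 1.04 (0.991 to 1.099), and 119 and 117 at time 1, a ratio of 0.977 (0.884 to 1.08). Its 4 class levels in matched cells thus lay within 117 to 127, and within the 2 clusters its ratio was 1.05 and 1.03. Outside the matched cells the ratio of Zdbf2 was not near 1. In time 2 cells with a chromosome 8 gain it read 127 and 180, a ratio of 1.42 (1.38 to 1.45). Over all pluripotent-marker cells of time 2 it read 144 and 217, a ratio of 1.51 (1.48 to 1.53). In those of high X dosage it read 166 and 87.6, a ratio of 0.528 (0.425 to 0.649). Ogfrl1 read 21.9 and 22.8, a ratio of 1.04 (0.921 to 1.19), but its ratio was 0.743 (0.694 to 0.797) with a chromosome 8 gain, 0.730 over all pluripotent-marker cells and 0.736 when cells were thinned to 10000 UMIs. Gm2000, a predicted gene of 445 bases whose UMIs may be shared with similar genes, read 160 and 168, a ratio of 1.05 (1.0004 to 1.098).

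At the other end, 9 members exceeded 1.8, or 2.34% of the 384, where 0.283% of all genes tested did. Gli2, E330020D12Rik and Fzd7 were under the level minimum of 20 without gain and passed only through their level with it. Of the 352 members that reached 20 without gain, a limit chosen after seeing the data, 6 exceeded 1.8, or 1.705%, and of 6265 such genes on other autosomes 4 did, or 0.0638%. At time 1, 23 members exceeded 1.8, 6 of them among the 9. Within both clusters 5 did, 4 of them among the 9. On other autosomes 10 genes exceeded 1.8, and 9 of these 10 did so at time 1 and 7 within both clusters. Of all 6334 genes on other autosomes, 28 exceeded 1.8 at time 1 and 7 within both clusters. In cells of high X dosage 55 members exceeded 1.8, 3 of them among the 9. There, 199 of the 6334 genes on other autosomes exceeded 1.8, 4 of them among the 10. In time 2 cells with a chromosome 8 gain 10 members exceeded 1.8, 5 of them among the 9. On other autosomes 16 genes did so in those cells, 5 of them among the 10. Vwa3b (ENSMUSG00000050122, chr1:37026596-37187613), which encodes a protein with a von Willebrand factor A domain, had the highest ratio. It read 28.8 and 76.2 at time 2, a ratio of 2.65 (2.42 to 2.91), and 18.7 and 43.6 at time 1, a ratio of 2.34 (1.97 to 2.75). Both gain classes lay above both no-gain classes, and the ratio was 2.18 within the Nanos3-led and 2.43 within the Mras-led cluster. E330020D12Rik, annotated as a processed transcript, read 15.6 and 37.5 at time 2, a ratio of 2.40 (2.103 to 2.75), and 13.0 and 19.8 at time 1, a ratio of 1.53 (1.18 to 1.95). Over all pluripotent-marker cells of time 2 its ratio was 1.46 (1.403 to 1.52). Fam178b read 21.5 and 46.8, a ratio of 2.17 (1.94 to 2.44), and its ratio at time 1 was 2.25.

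Transcription factors and a signalling receptor were among these genes. Nr5a2, a nuclear receptor that takes part in the pluripotency network, read 36.6 and 76.9 at time 2, a ratio of 2.103 (1.93 to 2.29), and 18.5 and 65.7 at time 1, a ratio of 3.55 (3.08 to 4.06). It is a leading gene of the Mras-led cluster, in which the ratio was 1.798, and in cells of high X dosage it had 1.203 (0.893 to 1.59). Gli2, a transcription factor of Hedgehog signalling, read 13.5 and 29.4 at time 2, a ratio of 2.18 (1.90 to 2.51), and 8.49 and 29.9 at time 1, a ratio of 3.52 (2.85 to 4.31). Its ratios within the clusters were 3.43 and 1.77, and in cells of high X dosage 0.802 (0.481 to 1.26), on the other side of 1. Msc, the helix-loop-helix repressor musculin and a leading gene of the Nanos3-led cluster, read 28.2 and 55.4, a ratio of 1.97 (1.79 to 2.17). Its ratio was 2.88 (2.44 to 3.37) at time 1 and 1.76 and 1.93 within the clusters. It was only 1.34 (1.28 to 1.405) in time 2 cells with a chromosome 8 gain. Over all pluripotent-marker cells of time 2 the ratio of Msc was 1.49 (1.45 to 1.54), so it exceeded 1.5 in some sets of cells only. Fzd7, a Wnt receptor, read 17.1 and 33.8 at time 2, a ratio of 1.98 (1.75 to 2.25), but 41.7 and 59.0 at time 1, a ratio of 1.41 (1.23 to 1.62).

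Glul, the glutamine synthetase, was the most abundant of the 9. It read 116 and 226 at time 2, a ratio of 1.95 (1.85 to 2.05), and 80.1 and 165 at time 1, a ratio of 2.06 (1.88 to 2.24). The 2 time points gave overlapping intervals, both above 1.5. In time 2 cells of high X dosage Glul read 106 and 123, and its ratio of 1.15 (1.03 to 1.295) lay below 1.5. Tomm40l, a relative of the mitochondrial import channel, read 21.6 and 43.7, a ratio of 2.02 (1.81 to 2.26). Ivns1abp, a Kelch-repeat protein, was just under 1.8 and read 87.2 and 156, a ratio of 1.79 (1.69 to 1.90).

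**Figure D3:**
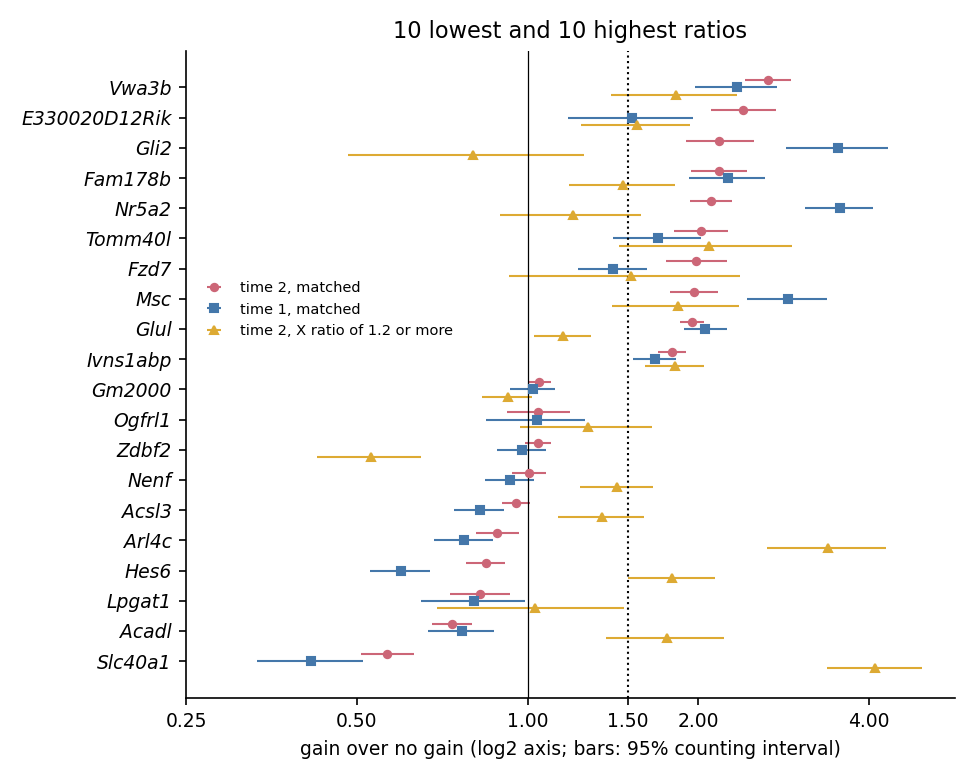
Ratio of gain over no gain (x axis, log2 scale) for the 10 lowest and 10 highest members of matched time 2 cells, with 95% counting intervals as bars, beside the same genes in matched time 1 cells and in time 2 cells with an X ratio of 1.2 or more. Slc40a1 lies at 0.566 and 0.416 in the matched cells of time 2 and time 1, and at 4.10 in the cells of high X dosage.

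Levels were graded over steps of a cell's ratio. The summed level of the first alternating set, relative to its no-gain class, was 0.917 in cells whose ratio from the second set was 0.8 to 0.9, 1.12 at 1.1 to 1.2, 1.25 at 1.2 to 1.3, 1.44 at 1.4 to 1.5 and 1.55 at 1.6 to 1.7. The second set, read by the first, gave 0.923, 1.04, 1.15, 1.41 and 1.48 in the same steps. Levels were therefore higher at each of these steps in both sets, in bins of 29 to 487 cells for these steps. They lay below the classifying ratio in the highest step. Ratio and level were divided by the reference UMIs of the same cells, so they can move together without a change in copies. The steps from 0.8 to 1.2 lie within the no-gain class. What part of the grading this shared divisor made was not tested. H3f3a rose between the classes but not steadily within them. It read 2467 at 0.9 to 1.0, 2364 at 1.1 to 1.2 and 2733 at 1.2 to 1.3. Above that it read 3539 at 1.4 to 1.5, 3484 at 1.5 to 1.6 and 3397 at 1.6 to 1.7. Nr5a2 read 32.1 at 0.9 to 1.0, 62.0 at 1.2 to 1.3 and 80.2 at 1.5 to 1.6. Acadl did not rise over the steps. It read 45.9 at 0.8 to 0.9, 59.1 at 0.9 to 1.0, 60.0 at 1.1 to 1.2, 40.1 at 1.2 to 1.3 and 45.0 at 1.5 to 1.6. The lowest step was thus near the high ones, and the lower level was already seen between the classes. Cells between the classes were few and had more UMIs than others.

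**Figure D4:**
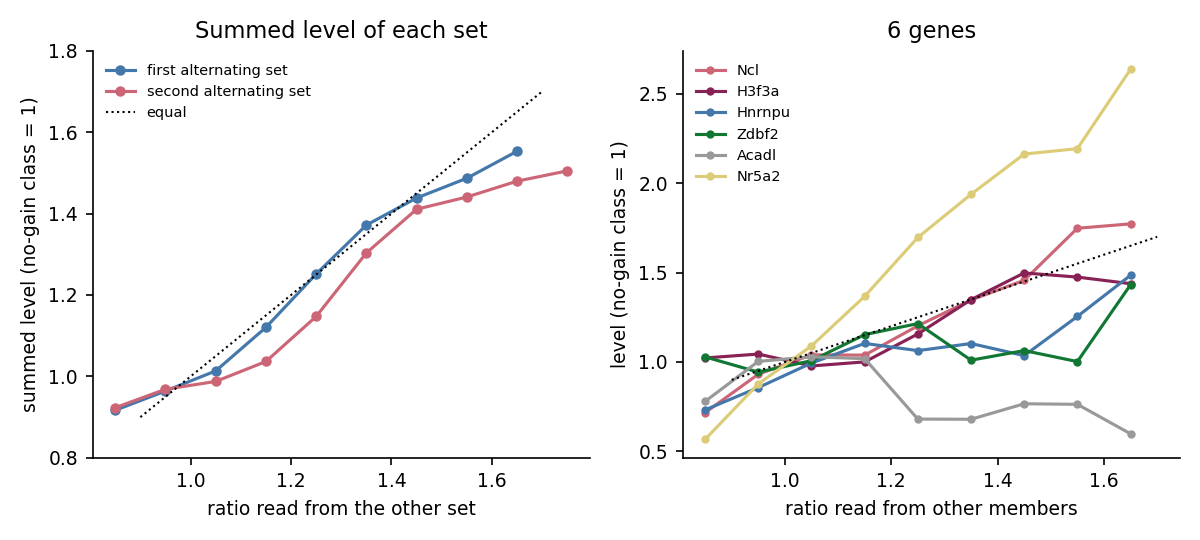
Left, summed level of each alternating set in matched time 2 cells (y axis, no-gain class = 1) against the ratio read from the other set (x axis, bins of 0.1 with at least 20 cells). Right, levels of 6 genes on the same scales, in bins of at least 20 cells under both classifying sets, in which Nr5a2 lies above the dotted line of equal values from the bin of 1.0 to 1.1 upwards, Zdbf2 reads 122 at 1.5 to 1.6 but 174 at 1.6 to 1.7, against 122 without gain, and Acadl lies below 1 in the lowest bin and again from 1.2 upwards.

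Median ratios were similar along the chromosome. In the 20 windows of 10 Mb, median ratios ranged from 1.25 at 20 to 30 Mb, where 3 members passed, to 1.48 at 190 to 200 Mb, where 10 passed. The best filled window, 130 to 140 Mb with 37 members passed, gave 1.45. Members on the proximal side of the middle of the chromosome (start below 97.6 Mb) had a median of 1.41 (186 passed) and those on the distal side 1.43 (198 passed). With cells classed by the members of the opposite side only, these medians were 1.403 and 1.43. Of the 33 members under 1.2, 13 were proximal and 20 distal, and no window held more than 5.

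The share of cells in which only one side was raised depended on depth and on the limit. A ratio of at least 1.3 on one side with at most 1.1 on the other was found on the proximal side in 19 of 14122 pluripotent-marker cells at time 1, or 0.135% (0.0810 to 0.210%), and in 54 of 19085 at time 2, or 0.283% (0.213 to 0.369%). The distal side alone was raised in 4 cells at time 1 and 3 at time 2. Either side alone came to 0.163% and 0.299%, which became 0.963% and 1.13% with cells thinned to 10000 UMIs, and 0.0637% and 0.121% with a limit of 1.4. The alternating sets, which interleave along the whole chromosome and serve as background, gave 8 and 4 such cells at time 1 and 47 and 4 at time 2. At time 2 the proximal count of 54 was near the 47 of a set that is no segment. At time 1 the proximal count of 19 was above the 8 and 4 of the alternating sets, and the interval of its share overlapped that of the 8, which is 0.0245 to 0.112%. Across the 19085 cells of time 2 the ratios of the 2 sides had a Pearson correlation of 0.906, and across the alternating sets 0.912. At time 1 the values were 0.567 and 0.594 over 14122 cells. Points of these correlations share library and depth, and in each cell both ratios were divided by the same reference UMIs.

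**Figure D5:**
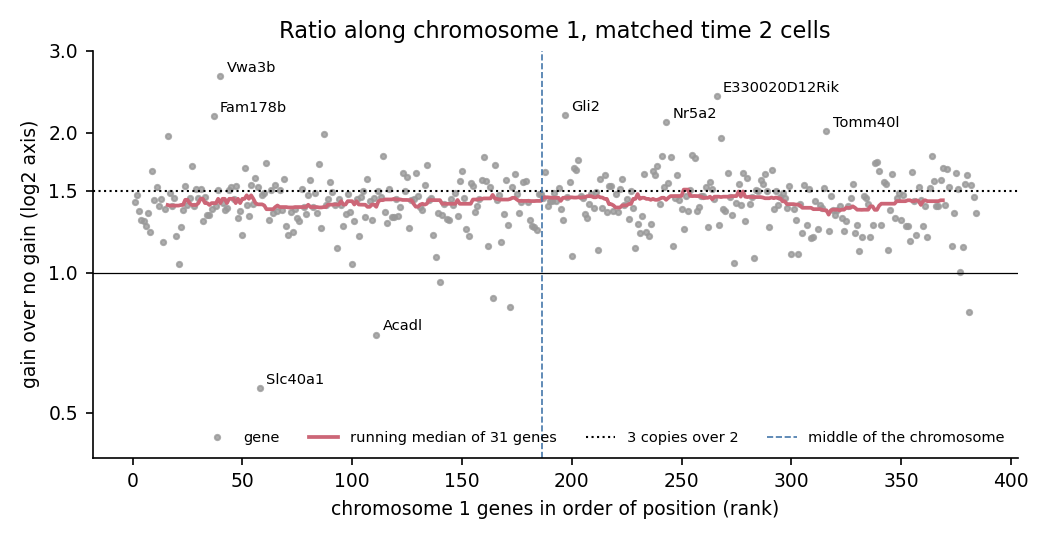
Ratio of gain over no gain (y axis, log2 scale) of the 384 members that passed, in order of position along chromosome 1 (x axis, rank), with a running median of 31 genes, a dotted line at 1.5 and a dashed line at the middle of the chromosome. The running median stays between 1.33 and 1.51 along the whole chromosome, while single genes such as Slc40a1 (0.566) and Vwa3b (2.65) depart from their neighbours.

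Medians differed little between members grouped by level or by length. Level is not independent of the choice of members, which used detection, nor of the ratio, since it averages both classes. The 128 members of the highest levels had a median ratio of 1.45 and 7 under 1.2, against 1.41 and 13 for the 128 of the lowest levels and 1.38 and 13 for those between. The 128 longest genes had a median of 1.45, the 128 shortest 1.41 and those between 1.39. The 5 lincRNA members had a median of 1.53. Among the 243 members under the level minimum the median was 1.34 and 75 were under 1.2, at levels where counting error is larger.

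Promoter entries were found for 520 of the 627 members, 322 of which passed. A GC box lay in 70.8% of these 322 windows and in 35.7% of all 32851 promoters of the table. A CCAAT match lay in 41.0% and 37.4%, and TATAAA in 1.55% and 13.6%. The median number of CG pairs was 23 against 7. The table also holds promoters of genes that these cells do not transcribe, and the members were chosen by detection. Among the members, the 28 under 1.2 (the Acadl and Lpgat1 windows printed above included) had a GC box in 82.1% of windows and a median of 30.5 CG pairs, and the 7 over 1.8 in 57.1% with a median of 17. These 7 were not limited to members that reached a level of 20 without gain. E330020D12Rik, whose window is printed above, read 15.6 without gain. Of the 101 members with the most CG pairs (29 to 55), 14.9% were under 1.2, against 6.90% of the 116 with the fewest (1 to 19) and 4.76% of the 105 between. Their median ratios were 1.43, 1.42 and 1.398. The shares under 1.2 rest on 15, 8 and 5 members, and whether they differ was not tested.

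Between time points, cells without the gain differed in many members, about as often as in other genes. In matched no-gain cells 364 members reached the level minimum, and the median log2 of time 2 over time 1 was -0.03 against -0.04 for 6538 other autosomal genes. The sign of the members' median depended on the scaling, with 0.03 when scaled to all UMIs and 0.07 under trimmed means. At least 1.2-fold higher at time 2 were 66 members, or 18.1%, where 14.4% of all 6902 genes tested were, and at least 1.2-fold lower were 85, or 23.4%, where 23.3% were. Medians of the 7 lists over their members that passed above were 0.25 for translation, 0.13 for RNA processing, -0.10 for mitochondria and metabolism, -0.13 for signalling, and between 0.00 and 0.06 for the other 3. Ncl had a log2 change of 0.68 and Nr5a2 of 0.98, while Fzd7 had -1.29, Arl4c -1.19 and Hes6 -1.15. The no-gain cells came mostly from the Zbp1-led cluster at time 1 (90.0%) and from the Nanos3-led and Mras-led clusters at time 2, so time point and cluster cannot be told apart in these values.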

How the data were processed

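The deposited values are raw UMI counts of the authors, which come from Cell Ranger 6.1.2, per the file headers. bcl2fastq 2.20.0.422 and the builds mm10 and GRCm38 come from the submitters' processing notes. Of 32285 genes, 32158 matched GENCODE M21 (GRCm38) by identifier.

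Cells had at least 18000 UMIs, 1000 genes and at most 10% mitochondrial UMIs. The automatic threshold of Scrublet (scanpy 1.11.5) marked 0 cells, so the 10% of highest scores in each library were removed, a choice made after seeing this. Cells were clustered (2000 variable autosomal genes off chromosomes 1, 8 and 14, 30 components, 15 neighbours, Leiden resolution 0.5, igraph 0.11.9). Clusters used had no marker of another class among 10 leading genes; detection of at least 3 of 12 pluripotency markers (a UMI in at least 5% of cells), also asked for, was met by all 14 clusters and selected nothing. Clusters led by Notch2, Fli1, B020031M17Rik and Card19 met this too and were left out, which was a judgement. "Led by" names the first leading gene.

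Ratio intervals are exact conditional binomial and shares Clopper-Pearson. Levels scale counts to 9804 reference genes, each at most 3% of its chromosome's UMIs. Named genes were the 10 highest and 10 lowest ratios, the 8 highest levels and the 2 highest levels per list; a gene this rule names is not reported here. Members and lists were chosen with earlier results of these data known. Alternatives changed thresholds, reference, scaling (edgeR 4.0.16), classifying set, cells, doublets, depth and filter. Those within 1 cluster, without shared barcodes and with 20% of doublet scores removed were chosen after seeing the data. The scripts were tested on simulated data. Python 3.11.15, numpy 2.4.6, scipy 1.17.1, pandas 2.3.3 and R 4.3.3 were used.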

Additional observations from a re-analysis of the deposited data

Results flagged for a closer look

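In time 2 cells with an X ratio of 1.2 or more and no gain of chromosome 8 or 14, 10 of the 36 named members lay on the opposite side of 1 from the matched time 2 cells, and for 5 of them both intervals were clear of 1. Their gain class held only 45 to 87 cells against 2256 to 2469 without gain, and the difference between the 2 kinds of cells was not tested. Slc40a1 had a ratio of 4.10 (3.37 to 4.95), with 12.4 without gain and 50.6 with gain, against 0.566 in matched cells. Arl4c had 3.39 (2.64 to 4.29) against 0.884, with 20.7 and 70.3. Hes6 had 1.798 (1.502 to 2.14) against 0.843, with 30.8 and 55.4. Acadl had 1.76 (1.38 to 2.21) against 0.736, with 40.5 and 71.3. Igfbp2 had 0.887 (0.849 to 0.925) against 1.32, with 989 and 877. In the other 5 at least 1 of the 2 intervals held 1: Zdbf2 with 0.528 against 1.04, Acsl3 with 1.35 against 0.954, Gli2 with 0.802 against 2.18, Lpgat1 with 1.03 against 0.825 and Gm2000 with 0.922 against 1.05. Other autosomal genes were more dispersed in these cells, too: 1577 of 6334 reached 1.2 there, against 275 in matched cells.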

How the results depend on the processing

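No paired analysis was possible because each time point has 1 library and the libraries share only 1 replicate number. Medians count as moved here when they leave an interval around the main value. That interval borrows the relative width of the counting interval of the members' summed level or UMIs, not of the median itself. It is narrow, so most moves are small. The main values were a median ratio of 1.42, 351 members at 1.2 or more, 33 under 1.2, medians of 1.41 (proximal) and 1.43 (distal), a median log2 of -0.027 for time 2 over time 1, and 0.163% and 0.299% of cells with 1 side raised. The count at 1.2 or more stayed within 1.5 times the main count under every alternative except a level minimum of 50, which tests fewer genes and gave 220, with 18 under 1.2.

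Values of the median, proximal, distal and time contrast follow in that order. A gain limit of 1.4 gave 1.44, 1.43 and 1.46, and a no-gain limit of 1.1 gave 1.46, 1.45, 1.47 and -0.053. Scaling by all UMIs gave 1.37, 1.36, 1.38 and 0.031, with 52 members under 1.2, and trimmed means gave 1.43, 1.42, 1.44 and 0.070. A reference of all other autosomes gave 1.418 and 1.415 (proximal). Classing cells by the opposite side gave 1.41, 1.403 (proximal) and -0.018. All pluripotent-marker cells gave 1.4229 (proximal), 1.4223 (distal) and -0.047, with 52 under 1.2. Cells with a chromosome 8 gain gave 1.4002, 1.397 and 1.41. Cells of high X dosage gave 1.441, 1.439, 1.443 and -0.068, with 73 under 1.2. All clusters gave 1.458, 1.458, 1.461 and -0.012, with 79 under 1.2 and 0.369% and 0.489% of cells with 1 side raised. Keeping doublets gave 1.408, 1.405, 1.417 and -0.013. Thinning to 10000 UMIs gave 1.399, 1.391, 1.408 and -0.020, and 0.963% and 1.13% of cells with 1 side raised, where a limit of 1.4 gave 0.0637% and 0.121%. The share of cells with 1 side raised thus depended on depth. Time 1 gave 1.441, 1.441 and 1.440, with 55 under 1.2. No level filter gave 1.397, 108 under 1.2 and -0.094. Of the alternatives chosen after seeing the data, the Nanos3-led cluster gave 1.452, 1.417, 1.475 and -0.058, the Mras-led cluster 1.420 and 1.414 (proximal), removal of shared barcodes 1.413 (proximal), and removal of 20% of doublet scores 1.430, 1.430, 1.438 and -0.034. The cause of these shifts was not tested.

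Of 612 values of the 36 named genes, 356 moved by less than their counting interval, 249 moved beyond it, and 7 values of genes at least 1.2-fold apart changed side of 1: Igfbp2 with 0.927 over all pluripotent-marker cells, Lpgat1 with 1.15 within the Mras-led cluster, and, at high X dosage, Slc40a1 with 4.10, Acadl with 1.76, Igfbp2 with 0.887, Gli2 with 0.802 and Lpgat1 with 1.03. Without replicate libraries, spread between cultures is unknown.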
